A study of Homo sapiens with 2 samples.

Results

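The genes described here sense nucleic acids that appear where a cell does not normally hold them, or act on those nucleic acids. They were chosen by name, as the probesets of an Affymetrix exon array whose platform annotation gives exactly 1 gene symbol, that symbol being DDX58, IFIH1, DHX58, DDX60, EIF2AK2, ADAR, TLR3, TMEM173 or TREX1. The choice found 191 probesets of 8 genes, out of 286871 probesets of 18923 gene symbols, and every probeset of TREX1 was shared with a neighbouring gene and lay outside the rule. A probeset is a small group of probes placed in 1 exon or exon part, so each of these genes was read at 13 to 43 places.

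RNA was taken from MKN45P, a gastric cancer cell line labelled as highly metastatic, and from its parental line MKN45, with 1 array per line. Both lines were grown in the same serum-containing medium, were harvested with trypsin and were given no agent, and ribosomal RNA was reduced before labelling. The sources used here do not say how MKN45P was derived from MKN45. Neither line was replicated, so no difference could be tested against the variation between cultures and no p-value is given.

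A cell meets foreign or misplaced nucleic acid through a small set of receptors. RIG-I (gene DDX58, now RIGI) and MDA5 (IFIH1) are helicases that bind double-stranded RNA in the cytosol and signal through the mitochondrial adaptor MAVS to the kinase TBK1 and to interferon genes, while LGP2 (DHX58) is a related helicase that lacks the signalling domains and tunes the other two. STING (TMEM173, now STING1) relays the presence of cytosolic DNA, TLR3 reads double-stranded RNA in endosomes, PKR (EIF2AK2) stops translation when it binds such RNA, ADAR edits adenosines within it so that it is less readily sensed, and TREX1 degrades cytosolic DNA. Many of these genes are themselves induced by interferon, through elements in their promoters that bind interferon-activated transcription factors.

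Promoter windows of 5 of the 7 genes searched held the core letters of such an interferon-stimulated response element, which pairs 2 GAAA repeats, and they are shown so that the letters and their place can be read. RefSeq start sites in GRCh38.p14 gave 9 windows for 7 of the 9 named genes, each with 250 bases before and 50 bases after the start. DHX58 and TMEM173 were not matched and were not searched. GAAA repeats 2 bases apart were searched on both strands and were found in the windows of DDX60, IFIH1, EIF2AK2 and TLR3, that is in 4 genes, against 3.57% of all 35116 promoter windows of the same length. GAAA repeats 3 bases apart were found in the window of DDX58, against 2.86% of all windows. Either spacing was held by 6.08% of all windows. These shares count windows, while the 5 of 7 counts genes. The stretches below run 5′ to 3′ on the gene's strand over 180 bases, of which 10 lie after the start, and capitals mark the motif on either strand.
DDX60, chr4:168318743-168318922, minus strand: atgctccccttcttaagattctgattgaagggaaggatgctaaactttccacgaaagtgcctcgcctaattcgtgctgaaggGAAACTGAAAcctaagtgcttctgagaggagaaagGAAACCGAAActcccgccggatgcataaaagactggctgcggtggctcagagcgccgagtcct
IFIH1, chr2:162318675-162318854, minus strand: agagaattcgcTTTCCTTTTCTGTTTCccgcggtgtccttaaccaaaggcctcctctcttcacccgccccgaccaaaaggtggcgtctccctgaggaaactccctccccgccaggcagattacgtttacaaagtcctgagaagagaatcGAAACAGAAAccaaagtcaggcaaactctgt
EIF2AK2, chr2:37156971-37157150, minus strand: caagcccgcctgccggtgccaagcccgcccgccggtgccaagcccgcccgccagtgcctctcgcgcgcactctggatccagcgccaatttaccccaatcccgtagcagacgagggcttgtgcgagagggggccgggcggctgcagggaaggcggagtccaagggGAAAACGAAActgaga
TLR3, chr4:186068986-186069165, plus strand: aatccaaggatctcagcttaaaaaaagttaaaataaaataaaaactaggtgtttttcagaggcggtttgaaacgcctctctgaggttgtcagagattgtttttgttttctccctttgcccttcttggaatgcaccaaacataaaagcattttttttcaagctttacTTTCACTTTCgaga
DDX58, chr9:32526187-32526366, minus strand: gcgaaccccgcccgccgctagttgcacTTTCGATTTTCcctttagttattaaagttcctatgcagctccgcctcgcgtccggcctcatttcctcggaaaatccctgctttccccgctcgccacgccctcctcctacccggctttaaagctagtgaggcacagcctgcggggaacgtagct

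DDX60 held 2 copies on its own strand, at bases -88 to -79 and -53 to -44 counted from the start. IFIH1 held 1 copy on its own strand at -21 to -12 and a pair on the opposite strand, at -159 to -150 and -153 to -144, which overlap each other. At least 2 copies occurred in 0.259% of all windows. The letters lay across the start itself in EIF2AK2 and TLR3. Neither spacing was found in the 3 windows of ADAR or in that of TREX1. TTC followed by GAA 3 bases on, the palindromic core of a STAT-binding element, was in 7.66% of all windows and in those of DDX60 and TLR3. A match describes letters only, and binding was not measured.

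All 8 genes were higher in MKN45P by the median of their probesets, and 4 of the 8 were at least 2-fold higher. Of 13130 genes measured on these arrays, 4.58% were at least 2-fold higher and 54.9% were higher by any amount. Measured genes had 4 or more probesets and a median log2 level over both arrays no lower than 1.92, the median of all probesets. All 8 sensor genes met this, but DDX58 (1.80), IFIH1 (1.82) and DDX60 (1.72) were below 1.92 in MKN45. These genes met it through their level in MKN45P. Without the level filter 4 sensor genes were again at least 2-fold higher, against 3.55% of 16937 genes. The median difference, MKN45P minus MKN45 in log2 units, was 1.09 over the 8 genes and 0.03 over all measured genes. None of the 8 was 2-fold lower, a size reached by 1.20% of measured genes. The sensor genes and the partner lists below were chosen with earlier results of these data known. Their counts beside those of all genes are therefore a description and not a test. Most genes past 2-fold had higher levels: of the 602 genes at least 2-fold higher, 586 were among the 8081 genes with a median level of 2.77 or more, the 75th percentile of all probesets, and 16 were below it. The 4 sensor genes past 2-fold (DDX60, EIF2AK2, DHX58 and ADAR) were at such levels, and DDX58, IFIH1, TLR3 and TMEM173 were below. This level is taken over both arrays, so a high value in MKN45P raises it, and the split follows from that in part. By the level in MKN45 alone, 7 of the 8 sensor genes, all but ADAR, were below 2.77, and in MKN45P alone 3 were. In a whole-culture sample, a larger share of cells with a transcript and more of it per cell cannot be told apart.

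**Figure D1:**
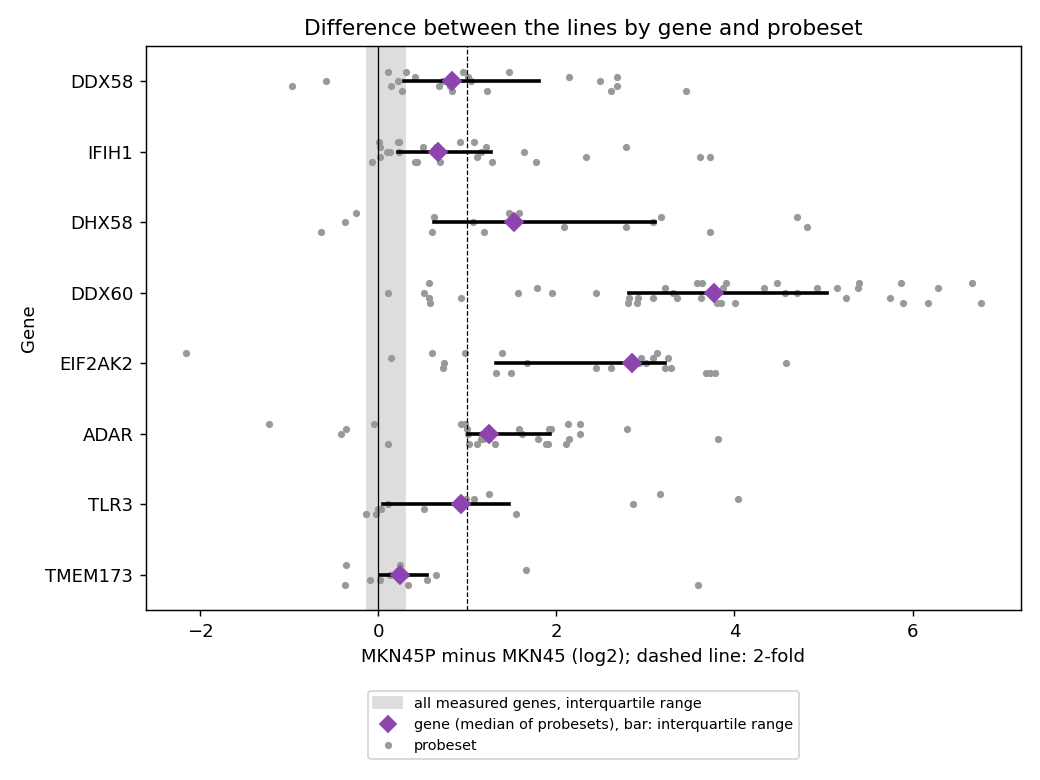
Difference between MKN45P and MKN45 in log2 units (horizontal) for 8 sensor genes (vertical). Diamonds are gene medians, bars the interquartile range over probesets, grey points single probesets, and the shaded band the interquartile range of all measured genes; DDX60 and EIF2AK2 lie farthest to the right, and TMEM173 lies inside the band.

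The RNA helicase sensors of the RIG-I family differed in size. DHX58 (LGP2) had median levels of 4.50 in MKN45P and 2.41 in MKN45, a difference of 1.52 (interquartile range over 16 probesets 0.62 to 3.11), and ranked 205 from the top among measured genes. Its probeset 3757604 read 6.90 in MKN45P and 2.08 in MKN45, and probeset 3757615 read 6.63 in MKN45P and 1.92 in MKN45. Of its 16 probesets 11 exceeded MKN45 by 2-fold or more, while none fell short of it by as much. Among all probesets with 1 symbol, 8.82% were 2-fold or more higher in MKN45P and 4.06% were 2-fold or more lower.

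DDX58 (RIG-I) had median levels of 2.63 in MKN45P and 1.80 in MKN45, and its difference of 0.82 (0.29 to 1.81 over 23 probesets) was short of 2-fold. In MKN45, 16 of the 23 probesets were below the median of all probesets. At least 2-fold higher values in MKN45P were found at 10 of the 23, and the probesets differed widely in their level in that line. Probeset 3203088 read 5.39 in MKN45P and 1.93 in MKN45, and probeset 3203091 read 4.44 in MKN45P and 1.76 in MKN45. By contrast, probeset 3203110 read 1.72 in MKN45P and 1.57 in MKN45, close to the low end in both. Probeset 3203104 was well above the low end in both lines, at 6.30 in MKN45P and 5.49 in MKN45.

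IFIH1 (MDA5) had median levels of 2.76 in MKN45P and 1.82 in MKN45, with a difference of 0.67 (0.22 to 1.26 over 26 probesets). It was higher at 25 of the 26 probesets and at least 2-fold higher at 11. Probeset 2584229 read 6.64 in MKN45P and 2.92 in MKN45, and probeset 2584224 read 5.59 in MKN45P and 1.97 in MKN45. At probeset 2584239 the lines were nearly level, with 3.87 in MKN45P and 3.77 in MKN45. With the mean over all probesets in place of the median, DDX58 (1.08), IFIH1 (1.01) and TLR3 (1.16) were past 2-fold too, which made 7 of the 8 sensor genes, against 4.91% of measured genes.

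DDX60, an interferon-induced helicase that has been reported to promote RIG-I signalling, had the largest difference of the 8 genes. Its median levels were 5.52 in MKN45P and 1.72 in MKN45, a difference of 3.77 (2.81 to 5.04 over 43 probesets), which ranked 15 among measured genes. It was also the only gene of the 8 past 8-fold, a size reached upward by 0.213% of measured genes. In MKN45, 36 of the 43 probesets were below the median of all probesets, and the highest read 3.12. In MKN45P the highest probeset, 2792837, read 9.18, and the same probeset read 3.002 in MKN45. Probeset 2792817 read 8.92 in MKN45P and 2.16 in MKN45, and probeset 2792820 read 8.01 in MKN45P and 1.72 in MKN45. All 43 were higher in MKN45P, and 37 were at least 2-fold higher. Its near relative DDX60L was higher by 1.34 (0.33 to 2.53 over 37 probesets). Whether RNA of either gene binds probes of the other was not tested, so the division between these genes is uncertain.

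EIF2AK2 (PKR) came next, with median levels of 5.41 in MKN45P and 2.68 in MKN45. The difference was 2.85 (1.32 to 3.22 over 25 probesets) and ranked 33. Unlike DDX60, it had probesets with clear signal in the parental line. Probeset 2548412 read 9.12 in MKN45P and 5.86 in MKN45, probeset 2548420 read 8.57 in MKN45P and 5.57 in MKN45, and probeset 2548410 read 8.88 in MKN45P and 4.31 in MKN45. Probeset 2548404 showed a smaller gap, with 8.23 in MKN45P and 7.49 in MKN45. In 1 probeset the order was turned, 2548441, with 2.73 in MKN45P and 4.89 in MKN45.

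ADAR, the editing enzyme, had signal along most of its length in both lines, with median levels of 8.66 in MKN45P and 7.25 in MKN45. The difference was 1.24 (1.00 to 1.93 over 31 probesets, rank 361). In MKN45, 2 of its 31 probesets were below the median of all probesets. Probeset 2436781 read 11.46 in MKN45P and 10.44 in MKN45, and probeset 2436776 read 10.51 in MKN45P and 9.36 in MKN45. The widest gap was at probeset 2436756, with 7.98 in MKN45P and 4.17 in MKN45. ADAR makes a long form from an interferon-inducible promoter and a shorter form that is made constitutively, and the probesets were not assigned to these forms here.

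TLR3, the endosomal receptor, had median levels of 2.72 in MKN45P and 1.95 in MKN45 and a difference of 0.93 (0.05 to 1.47 over 14 probesets). The median hid a split between probesets. In probesets 2754950, 2754951 and 2754952 the levels were 6.57, 6.55 and 6.75 in MKN45P, against 3.71, 2.52 and 3.60 in MKN45. In probeset 2754954 they were 8.26 in MKN45P and 6.71 in MKN45. At 4 other probesets both lines were below the median of all probesets, for example 2754943 with 1.64 in each line. Of the 14 probesets 6 were at least 2-fold higher in MKN45P.

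TMEM173 (STING) had the smallest difference, 0.24 (0.03 to 0.55 over 13 probesets), with median levels of 2.81 in MKN45P and 2.20 in MKN45. This lay inside the interquartile range of all measured genes, -0.13 to 0.30. The mean over probesets gave 0.53 and the difference between the lines' median levels 0.61, over 2 times the median and short of 2-fold. Its probesets disagreed with each other. Probeset 2877991 read 5.54 in MKN45P and 1.95 in MKN45, and probeset 2877995 read 3.86 in MKN45P and 2.20 in MKN45, while 2878005 read 5.07 in MKN45P and 5.44 in MKN45 and 2878008 read 4.70 in MKN45P and 4.57 in MKN45. A gap of 2-fold or more upward was found at 2 of the 13 probesets, and at none downward.

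**Figure D2:**
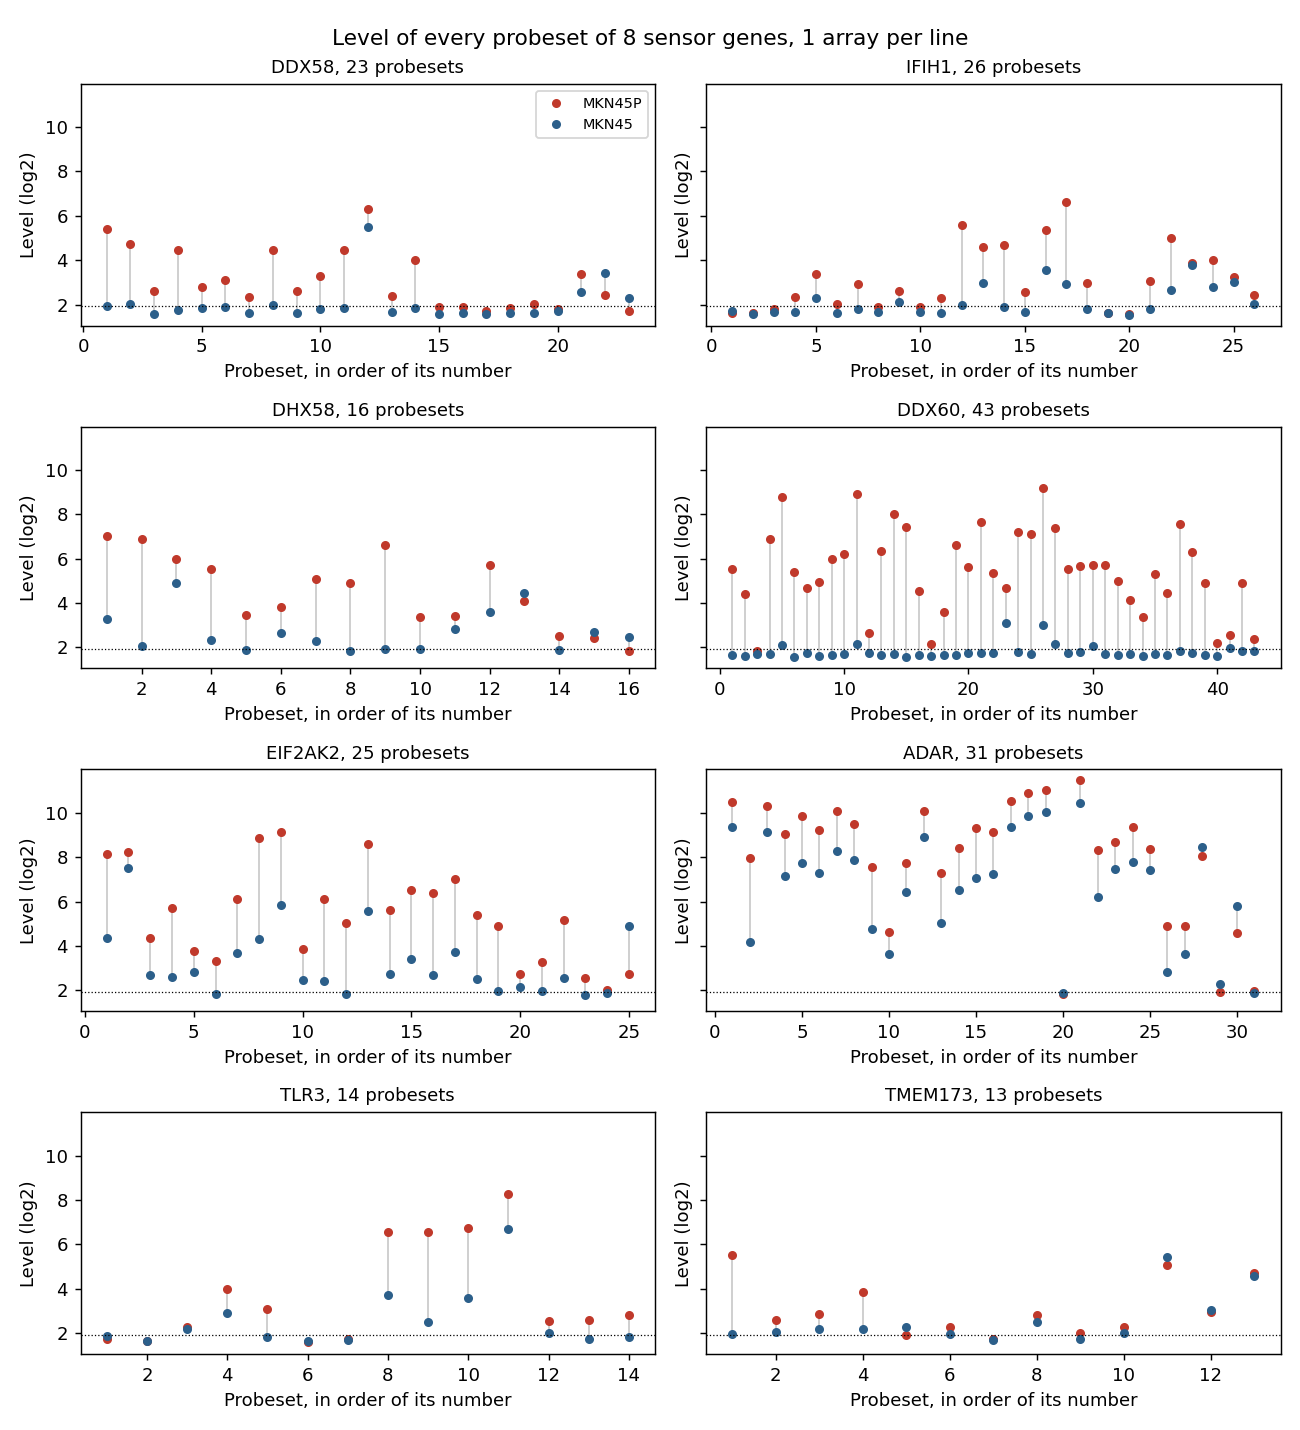
Level (log2, vertical) of every probeset of 8 sensor genes in order of probeset number (horizontal), with MKN45P in red, MKN45 in blue and a dotted line at 1.92, the median of all probesets. In DDX60 the MKN45 points lie along the low end while MKN45P points reach 9.18; in ADAR both lines have signal, and at its highest-numbered probesets the gap closes or turns.

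TREX1 could not be read on its own, because its 29 probesets also carry the symbol ATRIP, an adjoining gene of the DNA damage checkpoint. Over these shared probesets the median levels were 2.30 in MKN45P and 2.99 in MKN45, with a difference of -0.30 (-0.46 to 0.09). No probeset was 2-fold higher and 4 were 2-fold or more lower, beside 8.82% and 4.06% of all probesets with 1 symbol. The highest, probeset 2621738, read 8.14 in MKN45P and 8.44 in MKN45. The 5 probesets of ATRIP alone had a median difference of -0.44. The exonuclease gene therefore cannot be set beside the other sensors, and its value is given only as one shared with ATRIP.

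Taking the 191 probesets as places along the transcripts, 119 (62.3%) were 2-fold or more higher in MKN45P and 2 were that much lower. Of all 1-symbol probesets 8.82% were 2-fold or more higher and 4.06% were that much lower. Probesets of 1 gene share its transcript and are not independent. In MKN45, 86 of the 191 were below the median of all probesets, against 22 in MKN45P. Only 19 were below it in both lines, so most of the places below it in the parental line were above it in MKN45P.

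The gap between the lines was not even along the genes. The numbers of the probesets follow chromosome order from gene to gene: within each strand of the 7 chromosomes that hold the named genes, Spearman's rho across genes between probeset number and position was 0.903 to 1.00. These are correlations across genes, and the order within a gene was not checked. If it is the same, the highest numbers lie nearest the start in the 5 genes known here to be on the minus strand (DDX58, IFIH1, DDX60, EIF2AK2 and ADAR). The 4 highest-numbered probesets, a choice made after the values were seen, had median differences of -0.24 in DDX58, 0.32 in IFIH1, 0.58 in DDX60, 0.44 in EIF2AK2 and -0.39 in ADAR. The remaining probesets had medians of 1.01 in DDX58, 0.80 in IFIH1, 3.85 in DDX60, 2.95 in EIF2AK2 and 1.58 in ADAR. IFIH1 had its smallest gap at the other end, with 0.08 over its 4 lowest-numbered probesets, where median levels were 1.72 in MKN45P and 1.68 in MKN45. In TLR3, on the plus strand, the order was the other way round, with 0.93 over the 4 highest numbers and 0.05 over the 4 lowest. In DHX58 and TMEM173, whose strand was not known here, the 4 highest had -0.31 and 0.02, and the rest 2.44 and 0.34. Median levels over the 4 highest numbers were low in DDX58 (2.12 in MKN45P, 2.43 in MKN45), DDX60 (2.47 and 1.84) and EIF2AK2 (2.64 and 2.23). They were 3.56 and 2.91 in IFIH1 and 3.28 and 4.045 in ADAR. The part of low signal in this unevenness was not tested.

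This unevenness was shared by other genes. On the minus strand, 240 genes with at least 8 probesets were 2-fold higher in MKN45P, DDX60, EIF2AK2 and ADAR among them. Their median was 0.70 over the 4 highest numbers and 1.53 over the 4 lowest. Among the 206 such genes on the plus strand it was 1.53 over the 4 highest and 0.68 over the 4 lowest. The smaller differences at that end were thus not limited to the sensor genes. At some of the 4 highest-numbered probesets of sensor genes the parental line was higher. The widest such gap was at EIF2AK2 probeset 2548441, with 2.73 in MKN45P and 4.89 in MKN45. ADAR probeset 2436796 read 4.58 in MKN45P and 5.81 in MKN45, ADAR probeset 2436791 read 8.06 in MKN45P and 8.47 in MKN45, and DDX58 probeset 3203121 read 2.44 in MKN45P and 3.41 in MKN45.

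**Figure D3:**
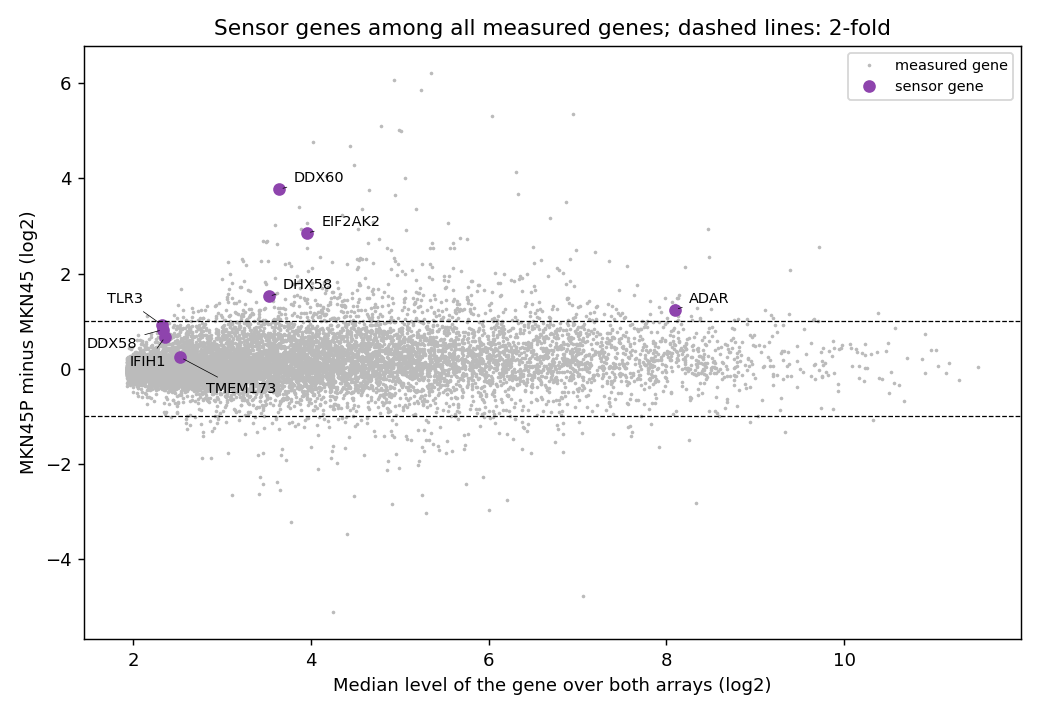
Difference between MKN45P and MKN45 (log2, vertical) against the median level of the gene over both arrays (log2, horizontal) for 13130 measured genes in grey and 8 sensor genes in purple, with dashed lines at 2-fold. DDX58, IFIH1, TLR3 and TMEM173 lie at levels under 2.77, where 16 of the 602 genes past 2-fold upward lie, and ADAR lies among genes with strong signal.

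The genes through which the RNA sensors signal had a median difference of 0.25. Of 18 measured signalling partners 3 were at least 2-fold higher, against 4.58% of all measured genes, and none was 2-fold lower, against 1.20%. The 3 were ZC3HAV1 (1.32), an antiviral zinc finger protein that binds RNA and has been reported to enhance RIG-I signalling, the transcription factor IRF7 (1.03) and TBK1 (1.00), the kinase that activates interferon regulatory factors. ZC3HAV1 had median levels of 5.94 in MKN45P and 3.61 in MKN45, and was higher at all 26 of its probesets. The calls of IRF7 (0.95 with quantile normalization) and TBK1 (0.90 with the mean of probesets) were lost under those settings. TRIM25, the ubiquitin ligase that acts on RIG-I, was at 0.77. The adaptor MAVS, listed under its older symbol VISA, had median levels of 4.87 in MKN45P and 5.08 in MKN45 and a difference of 0.32 (-0.10 to 0.57), while the difference between those median levels was -0.21, so its direction turned with the summary. IRF3, the other interferon regulatory factor of the pathway, was at 0.03 and the TLR3 adaptor TICAM1 at 0.09. Both turned their direction with quantile normalization, IRF3 to -0.08 and TICAM1 to -0.03.

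Among 20 measured genes of DNA sensing 3 passed 2-fold upward, against 4.58% of all measured genes, and no gene passed downward, against 1.20% (median 0.15). IFI16, a DNA-binding sensor, had median levels of 2.70 in MKN45P and 1.70 in MKN45 and a difference of 1.11 (0.20 to 2.76). RAD50, a DNA repair protein that also detects cytosolic DNA, was at 1.03 and fell short of 2-fold with quantile normalization (0.86). IFI35, an interferon-induced gene with no settled role as a sensor, was at 4.15. The DNA sensor cGAS, upstream of STING and listed as C6orf150, was at 0.82 with levels of 4.61 in MKN45P and 3.30 in MKN45. PRKDC, the DNA-dependent kinase, had a difference of -0.90, with levels of 6.30 in MKN45P and 7.21 in MKN45, and 2 of its 99 probesets were higher. With quantile normalization it was past 2-fold lower (-1.04). AIM2, the inflammasome sensor, was below the level filter, at 1.74 in MKN45P and 1.68 in MKN45.

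Of 17 measured nucleases and modifiers 3 were at least 2-fold higher, beside 4.58% of all measured genes (median 0.15). SAMHD1, a dNTP hydrolase that restricts viruses, had median levels of 7.19 in MKN45P and 3.47 in MKN45 and a difference of 2.92. PNPT1, a mitochondrial RNA-degrading enzyme, was at 1.31, and DNASE2, the lysosomal DNase, at 1.02 (0.95 with quantile normalization). RNASEH2C, a subunit of the RNase that removes RNA from RNA-DNA hybrids, was at -0.55. ADARB1, the other editing enzyme of the ADAR family, was at -0.31, with levels of 2.32 in MKN45P and 2.80 in MKN45.

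The relatives of PKR and its targets had a median difference of 0.27. Of 19 measured genes 2 were at least 2-fold higher, beside 4.58% of all measured genes, and 17 were higher by any amount, beside 54.9%. PPP1R15A (1.14), which directs removal of the phosphate that PKR and its relatives add, and DNAJC3 (1.09), an inhibitor of PKR, passed 2-fold, the second not with quantile normalization (0.97). Of the other kinases of this family EIF2AK3 was at 0.95, EIF2AK1 at 0.42 and EIF2AK4 at 0.03. Among 12 double-stranded RNA binding proteins none passed 2-fold, where 4.58% of all measured genes were that much higher and 1.20% that much lower (median 0.04). PRKRA, an activator of PKR, was at 0.86, and CDKN2AIP was at -0.89 (-1.03 with quantile normalization).

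Of 23 other measured helicases of the DExD/H box family, 2 were at least 2-fold higher, DDX1 (1.77) and DDX60L, beside 4.58% of all measured genes. None was 2-fold lower, beside 1.20%, and the median was 0.25. DDX1, an RNA helicase of RNA processing, had levels of 5.54 in MKN45P and 4.02 in MKN45. DHX30 was at -0.90 (-1.03 with quantile normalization) and DDX39 at -0.71. The other endosomal receptors gave little signal: TLR7 read 1.82 in MKN45P and 1.81 in MKN45, and TLR8 read 1.70 in MKN45P and 1.86 in MKN45, both below the filter. Of the 6 measured genes of that list none passed 2-fold (4.58% higher and 1.20% lower over all measured genes), with UNC93B1, the chaperone of these receptors, at -0.37, MYD88 at -0.34 and HSP90B1 at 0.38. With the difference between the lines' median levels, 9.62% of all measured genes were 2-fold higher and 2.32% lower. The count of genes 2-fold higher then rose to 5 in DNA sensing and to 5 among the relatives and targets of PKR. It rose to 2 in double-stranded RNA binding proteins and to 7 in the other helicases. It stayed at 3 in the RNA sensor signalling partners and at 3 in the nucleases and modifiers. Among the genes newly past 2-fold were cGAS (1.31), EIF2AK3 (1.396) and PRKRA (1.07). DDX39 (-1.14) was past 2-fold lower, and UNC93B1 turned its direction (0.07).

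**Figure D4:**
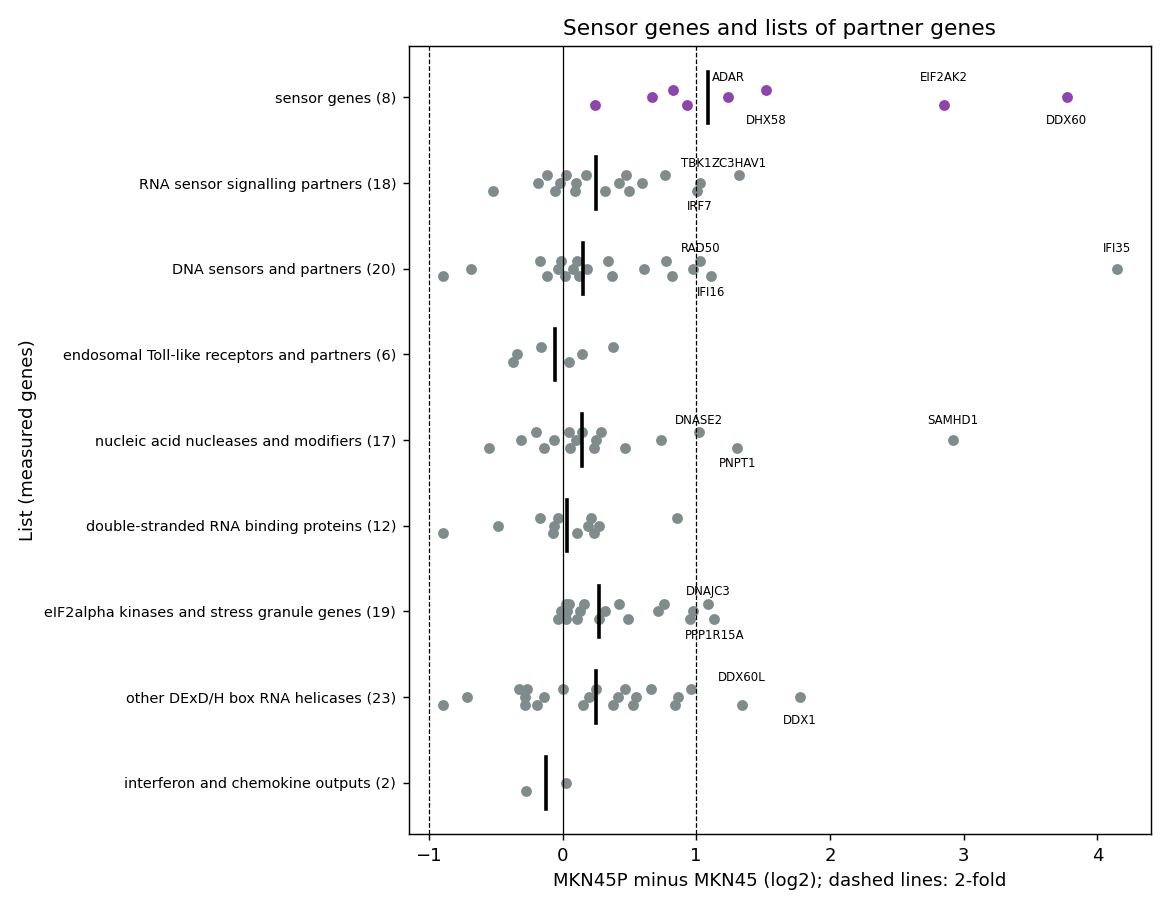
Difference between MKN45P and MKN45 (log2, horizontal) of measured genes in 9 lists (vertical, number of measured genes in brackets), with the list median as a black bar and genes past 2-fold named. The sensor genes have a median of 1.09, and the partner lists lie between -0.12 and 0.27.

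The interferons and chemokines that these sensors induce were near the low end in both lines. Of 13 with probesets, 11 did not pass the level filter, and their median levels ran between 1.64 and 2.05 in MKN45P and between 1.67 and 2.12 in MKN45. IFNB1, interferon beta, read 1.70 in MKN45P and 1.69 in MKN45, and IL29, interferon lambda, read 1.83 in MKN45P and 1.91 in MKN45. The interferon-induced chemokine CXCL10 read 1.72 in MKN45P and 1.74 in MKN45. CCL5, measured, read 2.997 in MKN45P and 3.27 in MKN45. No detection call was used here, so these levels do not show that the transcripts were absent.

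The labelled cell type was checked against markers. All 8 epithelial markers had a level of 2.77 or more, with CDH1 at 10.74 in MKN45P and 10.26 in MKN45. Of 7 measured epithelial markers 1, CLDN7, was at least 2-fold higher (1.14), beside 4.58% of all measured genes. By any amount 5 of the 7 were higher, beside 54.9%. Of 9 immune markers 1, NKG7, reached that level, and their summed log2 level was 18.8 in MKN45P and 19.6 in MKN45. The pan-leukocyte gene PTPRC read 1.65 in MKN45P and 1.66 in MKN45. For 7 fibroblast markers the summed level was 16.8 in MKN45P and 15.8 in MKN45. For 6 endothelial markers it was 13.3 in MKN45P and 14.8 in MKN45. A level of 2.77 or more was reached by 1 of the 7 fibroblast markers, FBLN1, and by 2 of the 6 endothelial markers, ENG and CLDN5. Of 5 measured fibroblast markers 1, FBLN1, was 2-fold higher (1.10), beside 4.58% of all measured genes. No measured endothelial marker was. The part of other cell types in the sensor differences was not tested.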

How the data were processed

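Total RNA of MKN45P and MKN45, 1 exon array each, was used. The authors deposited 1 log2 value for each of 877986 probesets on each array. That the unit is log2 follows from the range of the values, which reached 13.45 in MKN45P and 13.48 in MKN45, with medians of 1.91 in MKN45P and 1.93 in MKN45. The submitters' processing notes name Partek and the hg18 build; how background, probe summary and normalization were handled is not given in the sources used here. The 2 columns were used as deposited. Symbols came from the platform annotation (286871 probesets with 1 symbol, 3137 with several, 587978 unnamed), and RefSeq (GRCh38.p14) gave current names for 18815 of 18923 symbols, chromosomes and promoters. A gene's difference was the median over its probesets of MKN45P minus MKN45. The number of arrays limits the precision. The members and lists were chosen with earlier results of these data known. All 9 named sensor genes and every list member past 2-fold were named. In partner lists without such a member the largest differences were named. Further partners were named for their role after their values were seen. Of the listed genes, those without a 1-symbol probeset under the listed symbol were left out. SUPV3L1, of the nucleases and modifiers, was listed under a misspelled symbol that matched nothing, and so was not read. The steps were tested on simulated data. Calculations ran in Python 3.11.15 with pandas 2.3.3, numpy 2.4.6, statsmodels 0.14.6 (lowess) and scipy 1.17.1 (rank correlation). Alternatives were 3 scalings, 2 other gene summaries, probesets of higher mean level only, at least 10 probesets, no level filter, and probesets with several symbols.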

Additional observations from a re-analysis of the deposited data

How the results depend on the processing

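Over 9 alternative settings all 8 sensor genes stayed higher in MKN45P. DDX60, EIF2AK2, DHX58 and ADAR were at least 2-fold higher in each, with ranges of 3.65 to 3.91 for DDX60, 2.22 to 2.98 for EIF2AK2, 1.52 to 2.79 for DHX58 and 1.14 to 1.44 for ADAR. With the mean of probeset differences the count of sensor genes at least 2-fold higher was 7 in place of 4 (4.91% of measured genes passed), since DDX58, IFIH1 and TLR3 passed. With only probesets whose mean level over both arrays was 2.77 or more it was also 7 (11.4% of measured genes passed) and the sensor median was 2.64 in place of 1.09. That filter admits probesets low in MKN45 through a high MKN45P value alone, so these larger values, and the upper ends of the ranges above, follow from it in part and support nothing. With probesets of several symbols, which bring in TREX1, the sensor median was 0.93. The filter on probeset level gave 1218 measured genes at least 2-fold higher and 313 lower, and the difference between the lines' median levels gave 1263 higher and 305 lower, in place of 602 and 157; for the second the cause was not tested. Of 106 list medians under other settings, 97 stayed within the interquartile range of their list. Of 216 list counts, 199 stayed within 1.5 times. The largest partner count was 7 of the other helicases 2-fold higher with the difference of median levels, in place of 2. Under that setting 9.62% of all measured genes passed, in place of 4.58%. No scaling moved the median of all genes by more than 0.1. No paired analysis was possible because each line has 1 array. Leaving out a replicate was not possible for the same reason. In MKN45, 16 of 23 DDX58, 15 of 26 IFIH1 and 7 of 14 TLR3 probesets were below the median of all probesets, and no background call was used, so how far low signal limits their differences was not tested.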
